A study of Mus musculus with 8 samples.

Results

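Ribosome footprints in mouse liver were compared between 2 groups on a high-fat diet, over the 1780 genes that were covered deeply enough in every Ribo-seq library. These genes were chosen from 25033 entries by an RPKM (reads scaled to the length of the gene in kilobases and to the size of the library) of at least 20 in all 4 Ribo-seq libraries, after 138 small RNA entries above that level (symbols starting with Mir, Snord, Snora, Scarna, Rnu or Rn45s) had been dropped. Each gene was then placed by its own values: both B values above both M values, both below, or overlapping. Since these values both chose and sorted the genes, the footprint differences below are a description and carry no test. The RNA-seq libraries of the same study took no part in the choice, and the mRNA differences were tested.

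All mice were C57BL/6 and ate a diet with 45% of its energy as fat from week 8 on, and livers were taken at week 25. The labels also give the diet a length of 25 weeks and the methods a shorter one, so its length is uncertain. The B group also received 2% (w/v) betaine, the trimethylated glycine that donates a methyl group to homocysteine, dissolved in water, and for the M group no betaine is named. Each group had 2 libraries per assay, called M1, M2, B1 and B2. The labels speak of pooled preparations, while the methods speak of 2 male animals per group, picked for a body weight near the group mean, so the spread between libraries may be partly technical and is not a spread over a population of mice. The standard diet group of the study was not analysed here.

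Ribo-seq sequences the short piece of mRNA that a ribosome covers and protects from RNase. The number of such footprints on a gene depends on how much of its mRNA is present and on how many ribosomes sit on each copy. RNA that is bound in other protein complexes can also survive the digestion, so footprints on a gene without a reading frame are no sign of translation. Liver devotes much of its ribosome capacity to plasma proteins, and with these it makes the enzymes of the urea cycle, of one-carbon metabolism and of fat and sugar metabolism.

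Whole reads behind each RPKM were recovered from the steps of 1 read among the low values. Gene totals in RNA-seq came to 11661207 reads for M1, 11824128 for M2, 22543471 for B1 and 18082686 for B2, so both B libraries were deeper. Gene totals in Ribo-seq came to 387980 reads for M1, 1056546 for M2, 257086 for B1 and 141890 for B2, so here both were shallower. In both assays depth and group cannot be told apart. The 1780 genes took 65.2% to 69.8% of the recovered Ribo-seq reads. The median gene of the set rested on 55, 155, 35 and 18 reads in M1, M2, B1 and B2. In B2, 421 of the genes (23.7%) had fewer than 10 reads, and 1349 genes (75.8%) had 10 or more in every library. On a gene of 1 kb, 1 read in B2 was worth 7.05 RPKM. Of the 1780 genes, 1736 were annotated as protein coding, 27 had another type and 17 had none in GENCODE M21. All 10 hepatocyte markers were in the set. Few markers of other cells reached it: 2 of 12 for Kupffer cells, 1 of 12 for other leukocytes, 2 of 10 for endothelium, 1 of 11 for stellate cells and 3 of 9 for red cells, and none for cholangiocytes, adipocytes or exocrine pancreas. The summed footprint RPKM of the red cell markers was 1113, 625, 2567 and 402 in M1, M2, B1 and B2, and that of the Kupffer cell markers 337, 243, 346 and 146. In the same order, the sum was 193, 93.4, 109 and 47.4 for other leukocytes, 221, 195, 177 and 125 for endothelium and 164, 143, 111 and 97.7 for stellate cells. It was 15.2, 15.0, 8.63 and 0 for bile duct cells, 36.5, 32.3, 60.8 and 8.25 for adipocytes and 13.9, 26.6, 54.2 and 25.5 for exocrine pancreas. Both B sums were below both M sums for the endothelial, stellate and bile duct markers, and the groups overlapped for the others. In RNA-seq both B sums were below for the endothelial (160.5 and 152 against 103 and 126) and bile duct markers (27.6 and 32.9 against 16.0 and 26.4). They were above for the Kupffer cell (192 and 242 against 325 and 318) and stellate cell markers (44.8 and 40.4 against 79.8 and 53.9). Exocrine pancreas (7.02 and 9.81 against 12.9 and 13.9) and hepatocyte markers (46699.8 and 49354 against 59489 and 55948) were above as well. So were the red cell markers (677 and 526 against 743 and 2255), with the highest sum in B2. The groups overlapped for other leukocytes and adipocytes. Markers at 0 in every Ribo-seq library were 5 of 12 for other leukocytes (among them Cd79a, Ms4a1, Gzma and S100a9), 3 of 7 for bile duct (among them Krt7 and Epcam) and 2 of 9 for red cells (Hbb-b1 and Hbb-b2). So were 4 of 7 for adipocytes (Adipoq, Plin1, Lep and Retn) and 4 of 12 for exocrine pancreas (Prss1, Cela3b, Try4 and Try5). In the RNA-seq libraries no marker of other leukocytes, bile duct or adipocytes was at 0 throughout. There Hbb-b2 was, as were 6 of 12 exocrine pancreas markers. The part of these cells in the differences below was not tested, and in bulk tissue fewer cells of a type and less RNA per cell cannot be told apart.

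In the B group 249 genes (14.0%) had footprints above both M values and 517 (29.0%) below both, and 1014 overlapped. Over all 11190 genes with a mean footprint RPKM of at least 1 the shares were 9.07% above and 33.2% below. The median difference over the set, the mean log2(RPKM + 1) of B minus that of M, was -0.13. The excess of lower genes depends on the scaling: with the libraries brought to a common median, 368 genes (20.7%) lay above and 365 (20.5%) below, and with a common sum 78 (4.38%) and 1002 (56.3%). The centre moves too: it was 0.01 with a common median and -0.51 with a common sum, so every difference below is best read against -0.13. Most differences were small. Only 42 genes lay above and 42 below by more than 1 on the log2 scale without overlap (59 and 21 with a common median, 18 and 225 with a common sum). The median absolute difference between libraries was 0.27 for M1 and M2, 0.45 for B1 and B2, and 0.40 to 0.44 when an M library was set against a B library, so the B libraries differed from each other as much as they differed from the M libraries. For scale, limma over all genes called 1.58% of footprints higher and 7.86% lower at the thresholds of the study (a change of more than 1 on the log2 scale with p under 0.05 before adjustment), and 37 and 35 of the 1780 genes were among them. None of the 1780 had an adjusted p under 0.05 (the lowest was 0.493, with 127 genes under 0.05 unadjusted). Since the same values chose and sorted the genes, these limma values are given for scale and are no test of the set.

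The genes with higher footprints in the B group were short and those with lower footprints long. Of the 342 genes under 1000 bp, 31.0% lay above and 13.5% below, with a median difference of 0.18. From 1000 to 2000 bp the shares were 14.9% and 18.6% (592 genes, median -0.05), and from 2000 to 4000 bp they were 8.33% and 37.0% (624 genes, median -0.22). Among the 222 genes of 4000 bp or more, 3 (1.35%) lay above and 58.6% below, with a median of -0.40. Short genes also rested on fewer reads. The share with 10 or more reads in every library was 42.7% under 1000 bp and 68.75%, 92.0% and 100% in the longer classes. The part of read numbers in the length trend was not tested. Across genes the difference and the log2 length had a Pearson correlation of -0.36 (Spearman -0.39, 1780 genes that share the same 4 libraries). It was -0.41 for B1 alone, -0.19 for B2 alone and -0.05 for M2 minus M1. The mRNA fold change had a correlation of -0.10 with the same length. Length also differed between the functional groups below. Whether it plays a part in them was not tested, and each group is given with its median length.

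**Figure D1:**
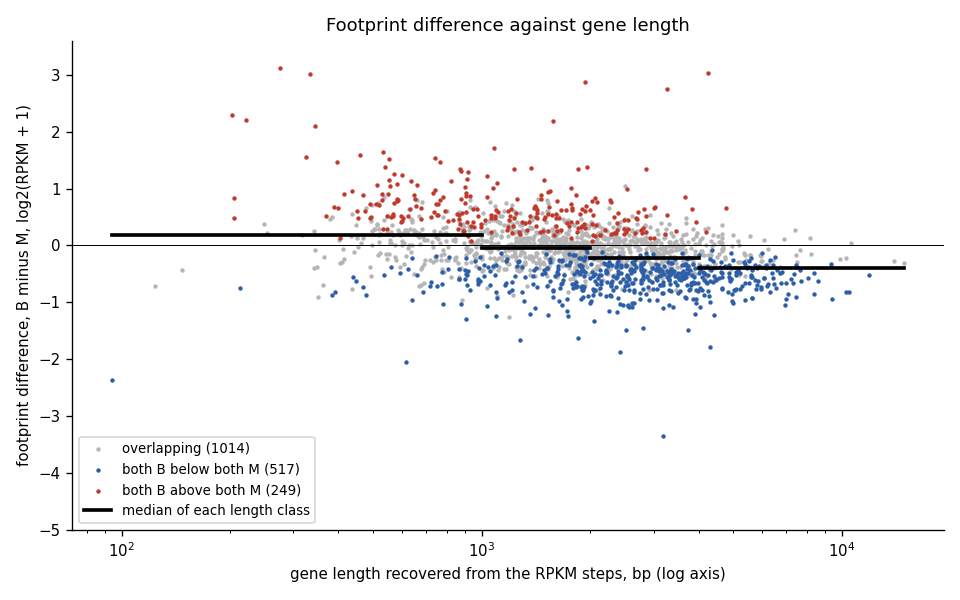
Footprint difference between the B and M groups, on the log2(RPKM + 1) scale, against the gene length in bp (log axis) for the 1780 deeply covered genes. Each point is a gene, coloured by whether both B values lie above both M values, below both or overlap, and the bars are the medians of the 4 length classes, which run from 0.18 under 1000 bp to -0.40 at 4000 bp and more.

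A list was made of the genes of each hepatic function, and 30 lists had at least 5 deeply covered members. In brackets after each count below stand the shares above and below and the lowest and highest median on leaving out 1 library. The shares are to be read against 14.0% and 29.0% of all deeply covered genes, and also against genes of like length. Those were 31.0% and 13.5% under 1000 bp, 14.9% and 18.6% from 1000 to 2000 bp and 8.33% and 37.0% from 2000 to 4000 bp. Of the lists, 12 had a median difference above 0, which became 20 under the scaling to a common median and 1 under the scaling to a common sum. In 14 of the 30 the median changed sign when a library was left out. The lists with the highest medians were the major urinary proteins, the respiratory subunits, the cytoskeleton, the proteasome and the ribosomal proteins. Those with the lowest were fatty acid synthesis, the clock and immediate response regulators, the nutrient signalling genes and the TCA cycle.

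**Figure D2:**
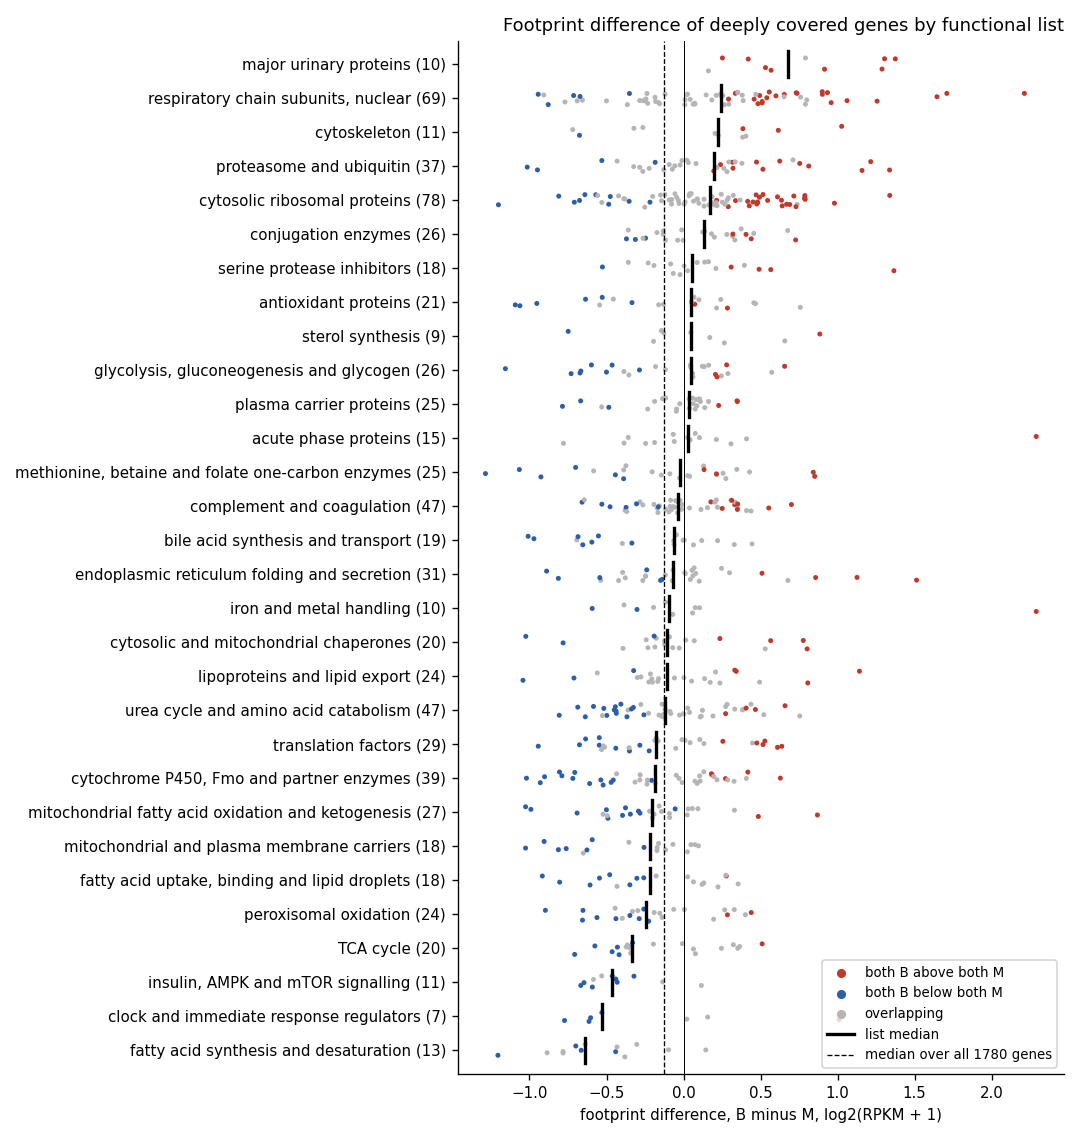
Footprint difference (B minus M, log2(RPKM + 1)) of each deeply covered gene in 30 functional lists, with the number of members in brackets. Points are genes, coloured by whether both B values lie above both M values, below both or overlap, bars are list medians and the dashed line is the median of all 1780 genes at -0.13. The list medians run from -0.64 for fatty acid synthesis to 0.68 for the major urinary proteins.

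The B1 and B2 libraries were also compared with the M libraries one at a time, since B2 had the fewest reads. Both put the urinary proteins, the proteasome, the conjugation enzymes, the serine protease inhibitors and the respiratory subunits above 0, the last at 0.00 in B2. Both put the nutrient signalling, TCA cycle, fatty acid synthesis, fatty acid oxidation, peroxisomal and lipid droplet lists below 0. The ribosomal proteins, the cytoskeleton, sterol synthesis, glycolysis, the antioxidant proteins, the one-carbon enzymes and the lipoproteins were above 0 in B1 and below 0 in B2.

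**Figure D3:**
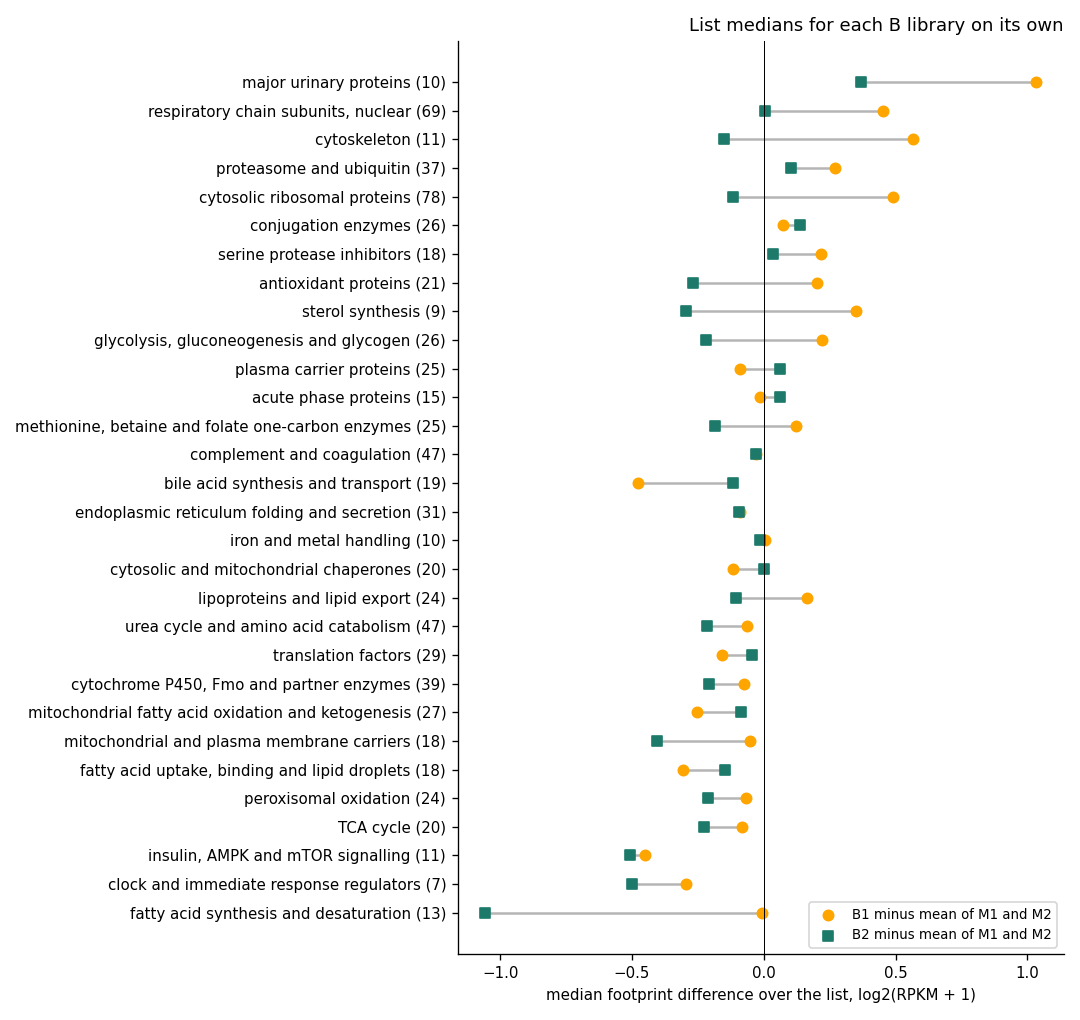
Median footprint difference of each functional list, on the log2(RPKM + 1) scale, for B1 (circles) and B2 (squares), each against the mean of M1 and M2. Numbers in brackets are members, and the line joins both B libraries. The squares and circles lie on opposite sides of 0 for the ribosomal proteins (0.49 for B1 and -0.12 for B2) and on the same side for the urinary proteins (1.03 and 0.37).

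Of 78 genes on the list of cytosolic ribosomal proteins, which counts the processed pseudogene Rpl32l, 25 lay above and 10 below both M values (32.1% and 12.8%), with a median difference of 0.17 and a median length of 681.5 bp. The median of all genes under 1000 bp was 0.18, and that of the 60 ribosomal proteins of that length was also 0.18. The median was 0.19 without M1, 0.14 without M2, -0.12 without B1 and 0.49 without B2, so the direction rests on B1. The small subunit had 12 of 31 proteins above and 3 below (median 0.27), and the large subunit 13 of 47 above and 7 below (median 0.13). At the mRNA level 1 of 78 passed the test and none fell (limma, a change of more than 1 on the log2 scale with p under 0.001 before adjustment), with a median log2 fold change of 0.12. Over all 10687 genes tested, 2.30% of mRNAs were called higher and 6.56% lower. Of the deeply covered genes 7.71% were called higher and 1.83% lower, with a median log2 fold change of 0.31, and the mRNA counts of each list below are to be read against these.

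Of these proteins Rpl21 of the large subunit had the widest gap between the groups, with 54.2 and 36.2 RPKM in M1 and M2 against 94.3 and 137 RPKM in B1 and B2. Both B values were above the M values, while its mRNA stood at 188 and 185 mRNA RPKM in M1 and M2 against 110.1 and 130.0 in B1 and B2, lower in both B libraries without passing the test (log2 fold change -0.64, SE 0.26, adjusted p = 0.091). Rpl5, the large subunit protein that carries 5S rRNA, had 101 and 100.3 RPKM in M against 164 and 185 RPKM in B. Rps29 of the small subunit had 615 and 675 RPKM in M against 1037 and 1012 RPKM in B. In the other direction Rps28 of the small subunit had 263 and 302 RPKM in M1 and M2 against 159 and 162 RPKM in B1 and B2, with no overlap, so proteins of the same subunit were found on both sides. Reads of ribosomal proteins are hard to place. A median of 59.4% of the 28-base stretches of their transcripts also occurred in transcripts of other genes, and the share was 27.8% for Rpl21, 49.1% for Rpl5, 39.7% for Rps29 and 57.3% for Rps28, against a median of 0.26% over 1767 genes of the set with a transcript in GENCODE. More than 50% of the stretches were shared in 20.2% of the genes above, 5.06% of those below and 11.1% of those that overlapped. Outside the ribosomal, urinary and serpin families, the named genes past that share were Fdps, Psmb5, Rpph1, Etfb, Cyp2c68, Cyp2d11, Eef1g, Sec61b and Hspe1 above, Ahcy, Pgk1, Sod2 and Cyp3a59 below and Bhmt among those that overlapped.

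Most mammalian ribosomal protein mRNAs begin with a C followed by a run of pyrimidines, the terminal oligopyrimidine (TOP) tract, which couples their translation to mTOR signalling. In the RefSeq table of start sites (GRCm38.p6), a C and at least 4 further C or T, searched on the coding strand at the annotated start itself, was present in 13 of 59 ribosomal protein genes with an entry. It was present in 53 of 1420 entries for the deeply covered genes (3.73%) and in 3.01% of all 27025 symbols of the table. Within 5 bases to either side of the start it was found in 29 of the 59 ribosomal protein genes, 26.0% of the deeply covered genes and 21.2% of all symbols. Of the 13 genes with the tract at the start, 4 lay above the M values, 2 below and 7 overlapped. The genes that did not overlap are shown here because they carry the same kind of start and lie on opposite sides. Each window has 15 bases before the start and 15 after, with the tract in capitals, from the coding strand.
Rpl35a (above, chr16:33056467-33056496): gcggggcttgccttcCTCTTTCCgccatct
Rpl14 (above, chr9:120571502-120571531): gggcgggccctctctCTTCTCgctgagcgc
Rpl35 (above, chr2:39005117-39005146): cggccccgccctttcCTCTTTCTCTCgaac
Rps10 (above, chr17:27635230-27635259): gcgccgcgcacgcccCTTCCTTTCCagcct
Rack1 (below, chr11:48800345-48800374): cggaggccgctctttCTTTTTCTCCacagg
Rpl32l (below, chr10:20208424-20208453): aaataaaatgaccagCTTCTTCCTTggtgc
Rpl35, with the tract of 11 pyrimidines, had 239 and 165 RPKM in M1 and M2 against 275 and 281 RPKM in B1 and B2. Rpl14, with a tract of 6, had 71.7 and 85.0 RPKM in M against 99.8 and 98.0 RPKM in B. Rack1, the scaffold protein of the small subunit, has a tract of 10 pyrimidines and had 261 and 193 RPKM in M1 and M2 against 189 and 163 RPKM in B1 and B2, just below the M values. Rpl32l, annotated as a processed pseudogene, had 52.2 and 44.8 RPKM in M against 32.9 and 35.7 RPKM in B, on 5 and 3 reads in B1 and B2. Rpl35, Rpl14, Rack1 and Rpl32l are named for their starts, after their values were seen.

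Of 29 translation factors, 6 lay above and 9 below both M values (20.7% and 31.0%, median -0.18, -0.17 without M1 to -0.04 without B1, median length 1786 bp), and 3 of 29 mRNAs passed the test, all higher. Eif4b, which helps the eIF4A helicase to unwind leaders, had 124 and 91.1 RPKM in M1 and M2 against 58.5 and 51.2 RPKM in B1 and B2. Eif4ebp2, which holds back the cap-binding protein eIF4E, had 101 and 80.0 RPKM in M against 56.6 and 55.2 RPKM in B, and Eif2s2, the beta subunit of eIF2, had 37.9 and 45.9 RPKM in M against 27.9 and 25.2 RPKM in B. All 3 had B values under both M values. Eif3l of the eIF3 scaffold went the other way with 20.4 and 27.0 RPKM in M1 and M2 against 37.0 and 37.2 RPKM in B1 and B2, as did 2 elongation factor subunits named here after their values were seen. Eef1b2 had 44.0 and 58.3 RPKM in M against 66.4 and 91.1 RPKM in B. Eef1g had 32.9 and 47.8 RPKM in M against 67.1 and 49.5 RPKM in B. For Eif4ebp2 the mRNA rose from 2.26 and 2.18 RPKM in the M libraries to 18.0 and 6.72 RPKM in the B libraries (log2 fold change 1.91, SE 0.38, adjusted p = 0.00904), opposite to its footprints.

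Nuclear-encoded subunits of the respiratory chain, which passes electrons to oxygen and drives ATP synthesis, were short, like the ribosomal proteins. Of 69 genes on their list, which counts the processed pseudogene Ndufb4c, 22 lay above and 5 below both M values (31.9% and 7.25%, against 14.0% and 29.0% of the set and 31.0% and 13.5% of all genes under 1000 bp), with a median of 0.25 and a median length of 659 bp. The median was 0.06 without M1, 0.27 without M2, 0.00 without B1 and 0.45 without B2. The 49 subunits under 1000 bp had a median of 0.27, against 0.18 for all genes of that length, and the 35 with at least 10 reads in every library had 0.29. By complex, the counts above and below were 9 and 1 of 28 for complex I, 1 and 0 of 4 for complex II, 3 and 2 of 9 for complex III, 5 and 0 of 11 for complex IV and 4 and 2 of 17 for complex V. At the mRNA level 8 of 68 passed the test, all higher, with a median log2 fold change of 0.41. Subunits encoded by mitochondrial DNA were not analysed here.

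Atp5k, a small membrane subunit of the ATP synthase (chr5:108433244-108434448 in GRCm38), had 93.3 and 124 RPKM in M1 and M2 against 528 and 478 RPKM in B1 and B2, on 8, 29, 30 and 15 reads. Its mRNA did not separate the groups, with 364 and 364 mRNA RPKM in M1 and M2 against 242 and 556 in B1 and B2 (log2 fold change 0.01, SE 0.38, adjusted p = 0.984). Cox7a2l, counted here with complex IV, had 129 and 128 RPKM in M against 479 and 372 RPKM in B, and here the mRNA rose as well, from 24.0 and 33.0 RPKM to 79.8 and 70.9 RPKM (log2 fold change 1.39, SE 0.26, adjusted p = 0.00801). Cox5b, a nuclear subunit of complex IV, had 109 and 89.8 RPKM in M1 and M2 against 253 and 223 RPKM in B1 and B2. Ndufb7 of complex I had 33.9 and 30.2 RPKM in M against 87.6 and 119 RPKM in B on as few as 7 reads in M1 and 9 in B2, so that its size is poorly fixed. The 5 subunits below both M values included the core proteins Uqcrc1 and Uqcrc2 of complex III and the catalytic Atp5a1 of complex V. Atp5a1, which like Uqcrc1 and Uqcrc2 is named after its values were seen, had 411 and 477 RPKM in M against 349 and 345 RPKM in B, while its mRNA rose (log2 fold change 1.65, SE 0.28, adjusted p = 0.00633).

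The TCA cycle, which feeds the chain, had 1 of 20 members above and 7 below (5.00% and 35.0%, median -0.34, -0.44 without M1 to -0.08 without B2, median length 2110.5 bp). Its mRNAs went the other way: 6 of 20 rose and none fell, and the median log2 fold change was 0.67, against 7.71% called higher, 1.83% lower and a median of 0.31 over the deeply covered genes. Sdha, the flavoprotein of succinate dehydrogenase and so a member of complex II as well, was the single member above, with 159.6 and 223 RPKM in M1 and M2 against 253 and 286 RPKM in B1 and B2. Its mRNA rose from 29.8 and 29.7 to 197 and 101 RPKM (log2 fold change 2.21, SE 0.33, adjusted p = 0.00525). Idh3b, a subunit of isocitrate dehydrogenase, had 76.3 and 60.4 RPKM in M against 33.3 and 51.0 RPKM in B. Suclg2, a subunit of succinyl-CoA synthetase, had 93.2 and 85.5 RPKM in M against 73.5 and 48.3 RPKM in B, and Fh1, fumarase, 74.2 and 89.9 RPKM in M against 57.2 and 64.8 RPKM in B. The 3 had B values below both M values by small gaps, and none of their mRNAs passed the test (log2 fold changes 0.54, 0.34 and 0.49).

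Fatty acid synthesis had the lowest list median, -0.64 over 13 members with a median length of 3151 bp, and 0 of them lay above and 4 (30.8%, against 29.0% of all deeply covered genes) below both M values. The median was -0.93 without M1, -0.32 without M2, -1.06 without B1 and -0.01 without B2, so its size rests on B2 and, less so, on M2. The mRNA of 6 of the 13 rose and of none fell, with a median log2 fold change of 1.59. Elovl2, which elongates polyunsaturated fatty acids, had 168 and 229 RPKM in M1 and M2 against 92.4 and 77.4 RPKM in B1 and B2, and its mRNA did not pass the test, with 41.4 and 44.7 mRNA RPKM in M1 and M2 against 165 and 67.0 in B1 and B2 (log2 fold change 1.27, SE 0.38, adjusted p = 0.0358). Hsd17b12, the ketoacyl reductase of the same elongation cycle, had 89.7 and 104 RPKM in M against 65.6 and 76.6 RPKM in B, and its mRNA rose (log2 fold change 1.30, SE 0.27, adjusted p = 0.0102). Hacd3, the dehydratase of that cycle, had 99.0 and 88.3 RPKM in M against 47.0 and 69.6 RPKM in B. Acsl1, which activates long-chain fatty acids, had 456 and 433 RPKM in M1 and M2 against 232 and 338 RPKM in B1 and B2.

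Of the members whose values overlapped, 3 are named here after their values were seen. Fads2, the delta-6 desaturase, had 309 and 492 RPKM in M1 and M2 against 371 and 138 RPKM in B1 and B2, and its mRNA rose from 38.5 and 36.2 to 551 and 203 RPKM (log2 fold change 3.13, SE 0.41, adjusted p = 0.00523), the largest mRNA rise among the deeply covered genes with a call. Scd1, the delta-9 desaturase, had footprints of 1845 and 4559 RPKM in M against 3558 and 1394 RPKM in B. Thrsp, a lipogenic regulator, had 269 and 588 RPKM in M against 1182 and 38.4 RPKM in B. In both the high values were those of M2 and B1 and the low values those of M1 and B2, so a library of each group stood on each side.

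Sterol synthesis had 1 of 9 deeply covered members above and 1 below (11.1% and 11.1%, median 0.05, -0.29 without B1 to 0.35 without B2, median length 2076 bp), and 4 of the 9 mRNAs rose, with a median log2 fold change of 1.44. Fdps, which makes farnesyl diphosphate, had 33.5 and 37.6 RPKM in M1 and M2 against 101 and 43.4 RPKM in B1 and B2, and mRNA of 30.0 and 23.4 against 300.1 and 125 RPKM (log2 fold change 2.83, SE 0.38, adjusted p = 0.00523). The mRNA of Fdps thus rose, and its footprints were above both M values in both B libraries. Of the stretches of Fdps, 90.0% also occurred in transcripts of other genes.

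Mitochondrial fatty acid oxidation and ketogenesis had 2 of 27 members above and 11 below (7.41% and 40.7%, median -0.20, -0.28 without M1 to -0.09 without B1, median length 2028 bp), against 7 mRNAs higher and 0 lower (median 0.81). Cpt1a, the gate for fatty acids into mitochondria, had 192 and 218 RPKM in M1 and M2 against 75.1 and 139 RPKM in B1 and B2, with an mRNA log2 fold change of 0.28 that did not pass the test. Acaa2, the thiolase of the last step, had 567 and 579 RPKM in M against 459 and 362 RPKM in B, and its mRNA rose from 269.8 and 319 to 799 and 787 RPKM (log2 fold change 1.43, SE 0.27, adjusted p = 0.00785). The members above were Eci1 and Etfb. Eci1, an isomerase for unsaturated chains, had 56.7 and 69.4 RPKM in M against 92.7 and 84.0 RPKM in B. Etfb, which takes electrons from the dehydrogenases, had 96.9 and 120.4 RPKM in M against 279.7 and 140.3 RPKM in B, and 68.1% of its stretches also occurred in transcripts of other genes.

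Peroxisomal oxidation had 2 of 24 above and 9 below (8.33% and 37.5%, median -0.24, -0.29 without M1 to -0.07 without B2, median length 2296 bp), with 1 mRNA higher. Pex11a, which divides peroxisomes, had 92.3 and 89.6 RPKM in M1 and M2 against 54.3 and 43.1 RPKM in B1 and B2. Crot, which hands shortened chains to carnitine, had 284 and 298 RPKM in M against 155 and 249 RPKM in B, and Scp2, a thiolase and lipid carrier, 1379 and 1403 RPKM in M against 1118 and 1209 RPKM in B. All 3 were lower in both B libraries. The list of fatty acid uptake and lipid droplets had 1 of 18 above and 8 below (5.56% and 44.4%, median -0.22, -0.31 without B2 to -0.11 without M2, median length 2276 bp). There Mgll, monoglyceride lipase, had 123 and 118 RPKM in M1 and M2 against 74.1 and 63.6 RPKM in B1 and B2. The phosphatidate phosphatase Lpin2 had 122 and 122 RPKM in M against 78.5 and 80.9 RPKM in B. Both genes were lower in both B libraries. The relative of Lpin2, Lpin1, had 134 and 70.7 RPKM in M against 48.4 and 53.9 RPKM in B. The acyltransferase Agpat3 had 84.7 and 82.6 RPKM in M against 63.3 and 51.2 RPKM in B. In this list 3 of 18 mRNAs were called higher, and no mRNA of the 2 lists was called lower.

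Lipoproteins and lipid export had 4 of 24 members above and 3 below (16.7% and 12.5%, median -0.11, -0.14 without M2 to 0.16 without B2, median length 1782 bp), and no mRNA passed the test. Apoc1 and Apoc3, small apolipoproteins, lay above. Apoc1 had 1828 and 1954 RPKM in M1 and M2 against 6165 and 2824 RPKM in B1 and B2. Apoc3, which slows the clearance of triglyceride-rich particles, had 616 and 769 RPKM in M against 1550.0 and 936 RPKM in B. Their mRNA was lower in both B libraries (24881 and 27989.6 against 8869 and 13345 RPKM for Apoc1, log2 fold change -1.28, and -0.99 for Apoc3) without passing the test. Apoa4, a component of lipoproteins, had 886 and 397 RPKM in M against 247 and 334 RPKM in B, and Angptl4, an inhibitor of lipoprotein lipase, 103 and 67.6 RPKM in M against 53.1 and 48.1 RPKM in B. For both of these M1 was the highest and both B values were the lowest. Bile acid synthesis and transport had 0 of 19 above and 7 below (0% and 36.8%, median -0.06, -0.48 without B2 to -0.12 without B1, median length 2330 bp), with 2 mRNAs higher and 1 lower. Abcb11, the bile salt export pump, had 70.0 and 90.6 RPKM in M1 and M2 against 33.7 and 45.4 RPKM in B1 and B2. Other export pumps lay below as well. Abcc2 had 142 and 169 RPKM in M against 86.6 and 111 RPKM in B. Its relative Abcc3 had 132 and 109.9 RPKM in M against 44.1 and 84.1 RPKM in B. Cyp8b1, the sterol 12-hydroxylase, had 58.2 and 71.8 RPKM in M against 43.9 and 36.1 RPKM in B on 5 reads in B2.

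The enzymes that handle betaine and methyl groups had 4 of 25 members above and 6 below (16.0% and 24.0%, median -0.03, -0.21 without M1 to 0.13 without M2, median length 2071 bp), and 2 mRNAs rose. Mat1a, which makes the methyl donor S-adenosylmethionine, had 1302 and 1469 RPKM in M1 and M2 against 790.0 and 916 RPKM in B1 and B2, on 453 reads in B2. Ahcy, which hydrolyses S-adenosylhomocysteine, had 89.3 and 92.4 RPKM in M against 55.1 and 33.3 RPKM in B, with 79.8% of its stretches shared with other transcripts. Chdh, the choline dehydrogenase of betaine synthesis, had 57.3 and 49.8 RPKM in M against 29.0 and 26.3 RPKM in B. All 3 were below both M values, with mRNA log2 fold changes of -0.24, -0.32 and -0.29 that did not pass the test. Shmt1, the cytosolic serine hydroxymethyltransferase, was above with 38.7 and 52.7 RPKM in M against 98.0 and 68.3 RPKM in B. Bhmt, which transfers the methyl group of betaine to homocysteine and is named here for that role after its values were seen, had 422 and 1332 RPKM in M1 and M2 against 980.4 and 432 RPKM in B1 and B2, so the M libraries alone spanned both B values.

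Amino acid catabolism and the urea cycle had 4 of 47 members above and 15 below (8.51% and 31.9%, median -0.12, -0.26 without M1 to -0.05 without M2, median length 2143 bp), with 1 mRNA higher and 2 lower. Glud1, glutamate dehydrogenase, had 496 and 557 RPKM in M1 and M2 against 310.4 and 290.1 RPKM in B1 and B2, and Got2, the mitochondrial aspartate aminotransferase, 237 and 225 RPKM in M against 158 and 168 RPKM in B. Slc25a13, the aspartate and glutamate carrier that joins both, had 95.0 and 105 RPKM in M against 67.3 and 56.5 RPKM in B. The 3 genes, named for the gaps between their groups, had lower footprints in both B libraries, and none of their mRNAs passed the test. Bckdhb, a subunit of the dehydrogenase of branched-chain ketoacids, had 38.2 and 36.9 RPKM in M against 52.4 and 52.2 RPKM in B, while its mRNA fell from 188 and 187 to 67.6 and 67.6 RPKM (log2 fold change -1.46, SE 0.25, adjusted p = 0.00593).

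Sugar metabolism had shares close to those of the set, with 4 of 26 members above and 8 below (15.4% and 30.8%, median 0.05, -0.29 without M1 to 0.22 without B2, median length 2226.5 bp), while 8 mRNAs rose and none fell (median 0.76). Those below included 2 enzymes of glucose output. G6pc, glucose-6-phosphatase, had 177 and 224 RPKM in M1 and M2 against 105 and 74.9 RPKM in B1 and B2, and Pck1, phosphoenolpyruvate carboxykinase, 988 and 1037 RPKM in M against 596 and 682 RPKM in B. Their mRNAs did not pass the test (log2 fold changes -0.76 and -0.20), and those of the M libraries lay far apart for G6pc (304 and 105 RPKM). Gys2, liver glycogen synthase, had 59.2 and 98.7 RPKM in M against 52.7 and 47.7 RPKM in B. Pgm2, which interconverts sugar phosphates, had 96.1 and 90.4 RPKM in M against 108 and 109 RPKM in B and a higher mRNA (log2 fold change 1.31, SE 0.25, adjusted p = 0.0085). Carriers of the mitochondrial and plasma membranes had 0 of 18 above and 7 below (0% and 38.9%, median -0.21, -0.41 without B1 to -0.05 without B2, median length 2590 bp), with 2 mRNAs higher. Aqp9, the glycerol channel, had 255 and 264 RPKM in M1 and M2 against 138 and 157 RPKM in B1 and B2. The liver carrier Slc25a47 had 437 and 399 RPKM in M against 202 and 245 RPKM in B. The amino acid transporter Slc38a2 had 70.3 and 54.3 RPKM in M against 31.7 and 40.9 RPKM in B.

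Among the enzymes of drug and oxidant metabolism, the list of cytochrome P450, flavin monooxygenases and partner enzymes had 5 of 39 members above and 13 below (12.8% and 33.3%, median -0.18, -0.21 without B1 to -0.08 without B2, median length 1914 bp), with 3 mRNAs higher and 2 lower. Of its 32 P450 genes, of families 1 to 4, 5 lay above and 10 below. Cyp2d40 had 154 and 145 RPKM in M1 and M2 against 63.5 and 95.9 RPKM in B1 and B2. Cyp3a59 had 67.1 and 91.0 RPKM in M against 27.3 and 52.9 RPKM in B. Cyp3a11, a steroid and drug hydroxylase, had 467 and 439 RPKM in M against 184 and 364 RPKM in B. All 3 lay below. Fmo1, a flavin monooxygenase, had 117 and 108 RPKM in M against 84.3 and 79.5 RPKM in B, and Cyp2c68 lay above with 30.6 and 34.8 RPKM in M against 44.0 and 43.8 RPKM in B. A median of 21.7% of the stretches of the genes of this list also occurred in transcripts of other genes, so their split between copies is uncertain. Conjugation enzymes had 4 of 26 above and 3 below (15.4% and 11.5%, median 0.13, -0.06 without M1 to 0.27 without M2, median length 1890.5 bp), with 2 mRNAs higher. The glutathione transferase Gstp1 had 301 and 267 RPKM in M1 and M2 against 569.9 and 388 RPKM in B1 and B2. Its relative Gstm1 had 420.3 and 383 RPKM in M against 577 and 490.2 RPKM in B. Inmt, a methyltransferase for indoles, had 194 and 202 RPKM in M against 308 and 234 RPKM in B, and Ugt2b36, a glucuronosyltransferase, 154 and 168 RPKM in M against 194 and 209 RPKM in B. The antioxidant proteins had 2 of 21 above and 6 below (9.52% and 28.6%, median 0.05, -0.27 without B1 to 0.20 without B2, median length 1271 bp), with 2 mRNAs higher. That share below is close to the 29.0% of the set, and the 4 genes named all lay below. They included Sod2, mitochondrial superoxide dismutase, with 81.6 and 81.9 RPKM in M1 and M2 against 53.9 and 59.0 RPKM in B1 and B2. Prdx2, a peroxiredoxin, had 67.9 and 62.6 RPKM in M against 36.0 and 25.1 RPKM in B. Gclm, the modifier subunit of glutathione synthesis, had 94.5 and 78.6 RPKM in M against 48.8 and 34.0 RPKM in B. Txn2, mitochondrial thioredoxin, had 105 and 97.5 RPKM in M against 60.7 and 44.0 RPKM in B. The last 3 rested on 5, 5 and 4 reads in B2.

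Secreted proteins take a large share of liver footprints. The major urinary proteins, small carriers of pheromones made in the liver and passed into urine, had 8 of 10 members above both M values and none below (80% and 0%). Their list median was the highest at 0.68 (0.37 without B1 to 1.03 without B2, median length 895.5 bp). It was positive under the scalings to a common median (0.82) and to a common sum (0.30) and for both B libraries. Mup2 had 10999 and 16910.1 RPKM in M1 and M2 against 31943 and 20707 RPKM in B1 and B2. Mup21 had 1290.4 and 1422 RPKM in M against 2087 and 1839 RPKM in B. Mup19 had 114 and 112 RPKM in M against 394 and 201 RPKM in B. In all 3 the B1 value was the highest. Mup6 had 28.6 and 59.6 RPKM in M against 151 and 78.3 RPKM in B on 6 reads in M1 and 6 in B2. No mRNA of the 9 tested passed, although all 9 had a positive log2 fold change (median 1.19). All members share sequence with others of the cluster, at a median of 91.6% of stretches, so they are better read as a family than as single genes. Serine protease inhibitors had 4 of 18 above and 1 below (22.2% and 5.56%, median 0.06, 0.04 without B1 to 0.22 without B2, median length 1674.5 bp), and none of 17 mRNAs passed the test. Of the alpha-1-antitrypsin genes, Serpina1e had 46.9 and 22.1 RPKM in M1 and M2 against 82.2 and 87.3 RPKM in B1 and B2. Serpina1c had 567 and 463 RPKM in M against 869 and 663 RPKM in B. Serpina1a had 3723 and 3913 RPKM in M against 5569 and 4016 RPKM in B. These copies too share 60.4% to 83.8% of their stretches. Serpina10, an inhibitor of coagulation factor X, had 62.5 and 45.9 RPKM in M against 87.0 and 65.7 RPKM in B.

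Plasma carriers had 3 of 25 above and 3 below (12% and 12%, median 0.04, -0.12 without M2 to 0.12 without M1, median length 1575 bp), and 1 mRNA lower. Alb, albumin, had the highest level of all hepatocyte markers, with 27734 and 22846 RPKM in M1 and M2 against 22774 and 30372 RPKM in B1 and B2, and the groups overlapped. Igf1, the liver-made growth factor, had 124 and 115 RPKM in M against 72.9 and 76.7 RPKM in B and a lower mRNA, 198 and 158 against 71.2 and 73.7 RPKM (log2 fold change -1.28, SE 0.26, adjusted p = 0.00931). Vtn, vitronectin, had 529 and 538 RPKM in M against 773 and 598 RPKM in B, and Pon3, a lactonase on lipoproteins, 41.6 and 32.0 RPKM in M against 26.2 and 25.4 RPKM in B. Acute phase proteins had 1 of 15 above and 0 below (6.67% and 0%, median 0.03, -0.23 without M2 to 0.15 without M1, median length 1705 bp), with 2 mRNAs higher. The member above was Hamp, hepcidin, the hormone that limits iron uptake, with 63.5 and 443 RPKM in M1 and M2 against 1092 and 625 RPKM in B1 and B2. Its M1 value rested on 5 reads, and its mRNA was lower in both B libraries, at 5918 and 8675 mRNA RPKM in M1 and M2 against 2112 and 2859 in B1 and B2, without passing the test. The iron and metal list, which also holds Hamp, had 1 of 10 above and 2 below (10.0% and 20.0%, median -0.09, -0.32 without M2 to 0.12 without M1, median length 1921.5 bp), with no mRNA call. Slc40a1, the iron exporter, had 72.4 and 70.3 RPKM in M against 48.3 and 68.8 RPKM in B, and Slc39a14, an importer, 83.2 and 56.7 RPKM in M against 40.5 and 50.4 RPKM in B. Complement and coagulation had 8 of 47 above and 6 below (17.0% and 12.8%, median -0.04, -0.17 without M2 to 0.13 without M1, median length 2074 bp), with 1 mRNA higher. F9, coagulation factor IX, had 50.2 and 52.7 RPKM in M1 and M2 against 29.7 and 35.0 RPKM in B1 and B2 and Klkb1, prekallikrein, 96.2 and 90.7 RPKM in M against 66.2 and 67.4 RPKM in B. Apoh, beta-2-glycoprotein I, had 582 and 643 RPKM in M against 800.3 and 743 RPKM in B and Kng2, a kininogen, 323 and 343 RPKM in M against 391 and 612 RPKM in B, both above.

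The proteasome degrades proteins tagged with ubiquitin. The proteasome and ubiquitin list had 12 of 37 above and 4 below (32.4% and 10.8%, median 0.20, median length 1454 bp), and 3 mRNAs rose. The median was 0.05 without M1, 0.20 without M2, 0.10 without B1 and 0.27 without B2. Over its 22 members with at least 10 reads in every library the median was 0.06. The catalytic core subunit Psmb5 had 23.7 and 36.9 RPKM in M1 and M2 against 103 and 56.6 RPKM in B1 and B2, with 76.4% of its stretches in transcripts of other genes as well. Psmb6, another core subunit, had 29.9 and 23.8 RPKM in M against 48.8 and 81.6 RPKM in B. Psmd12 of the regulatory lid was below with 61.3 and 52.2 RPKM in M against 33.9 and 24.5 RPKM in B, and so was the ubiquitin-conjugating enzyme Ube2l3 with 49.4 and 58.8 RPKM in M against 25.3 and 27.0 RPKM in B. Chaperones of the cytosol and mitochondria had 4 of 20 above and 3 below (20.0% and 15.0%, median -0.11, -0.12 without B2 to 0.00 without B1, median length 2281 bp), with 1 mRNA higher. Of the same chaperonin ring, Cct8 was above, while Tcp1 and Cct5 were below. Cct8 had 52.8 and 52.3 RPKM in M against 71.6 and 85.5 RPKM in B. Tcp1 had 59.8 and 75.7 RPKM in M against 24.2 and 43.8 RPKM in B. Cct5 had 51.7 and 46.0 RPKM in M against 34.9 and 22.3 RPKM in B. Proteins of 1 complex thus lay on both sides. Hspe1, the mitochondrial co-chaperonin, was above with 107 and 137 RPKM in M against 223 and 202 RPKM in B. The list of folding and secretion in the endoplasmic reticulum had 4 of 31 above and 6 below (12.9% and 19.4%, median -0.07, -0.14 without M2 to 0.10 without M1, median length 2449 bp), with 1 mRNA higher. Sec61b, Sec61g and Ssr4, membrane proteins at the translocon, were named for their gaps and lay above, while Sec61a1 and Ssr2 overlapped and Ssr3 lay below. Sec61b had 23.3 and 46.3 RPKM in M1 and M2 against 119.8 and 76.6 RPKM in B1 and B2. Sec61g had 29.8 and 29.2 RPKM in M against 64.9 and 45.2 RPKM in B. Ssr4 had 37.6 and 26.5 RPKM in M against 52.0 and 94.2 RPKM in B. Tmed2, a cargo receptor, was below with 169.7 and 133 RPKM in M against 86.7 and 74.9 RPKM in B. The B2 values of Sec61b, Sec61g and Ssr4 rested on 6, 5 and 11 reads. The cytoskeleton list had 3 of 11 above and 1 below (27.3% and 9.09%, median 0.23, -0.15 without B1 to 0.57 without B2, median length 1184 bp), with 1 mRNA higher. The Arp2/3 subunit Arpc3 had 40.0 and 47.3 RPKM in M1 and M2 against 73.4 and 109.5 RPKM in B1 and B2. Arpc2 of the same complex had 74.5 and 97.4 RPKM in M against 123 and 139 RPKM in B. The actin-binding Pfn1 had 91.8 and 77.2 RPKM in M against 125 and 97.2 RPKM in B. Krt8, the hepatocyte keratin, was below with 62.8 and 44.0 RPKM in M against 38.8 and 27.3 RPKM in B and rose at the mRNA level (log2 fold change 1.43, SE 0.28, adjusted p = 0.00829).

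Of 11 genes of nutrient sensing and its transcription factors, 0 lay above and 7 below (0% and 63.6%, median -0.46, median length 2636 bp), and the mRNA median was also below 0 (-0.50) with no gene past the test. The median was -0.25 without M1, -0.67 without M2, -0.51 without B1 and -0.45 without B2. Ppara, the receptor that senses fatty acids, had 119 and 107 RPKM in M1 and M2 against 71.2 and 78.2 RPKM in B1 and B2, and its partner Rxra 136 and 100.3 RPKM in M against 87.2 and 81.7 RPKM in B. Creb3l3, a fasting-induced activator of lipid genes, had 135 and 126 RPKM in M against 75.0 and 89.5 RPKM in B, and Hnf4a, the hepatocyte nuclear receptor, 186 and 136 RPKM in M against 116 and 88.2 RPKM in B. In each of these, both B values were below both M values. Of 7 clock and immediate response regulators, 1 lay above and 4 below (14.3% and 57.1%, median -0.53, -0.54 without M1 to -0.29 without B2, median length 2801 bp), and 1 mRNA fell, that of Txnip, an arrestin that limits glucose uptake (log2 fold change -1.23, SE 0.25, adjusted p = 0.00928). Zfp36, which destabilises AU-rich mRNA, was above with 49.7 and 50.9 RPKM in M against 119 and 87.8 RPKM in B, while its mRNA was at 145 and 113 mRNA RPKM in M1 and M2 against 53.4 and 62.2 in B1 and B2, lower without passing the test. Tef, a clock output factor, had 63.3 and 62.2 RPKM in M against 41.2 and 40.7 RPKM in B. Bhlhe40, a clock repressor, had 43.1 and 54.4 RPKM in M against 32.5 and 34.0 RPKM in B. Klf9, a glucocorticoid-induced factor, had 48.3 and 43.7 RPKM in M against 39.9 and 22.0 RPKM in B. These 3 lay below. Dcn, the only stellate cell marker in the set, had 79.6 and 76.2 RPKM in M against 64.3 and 69.9 RPKM in B.

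**Figure D4:**
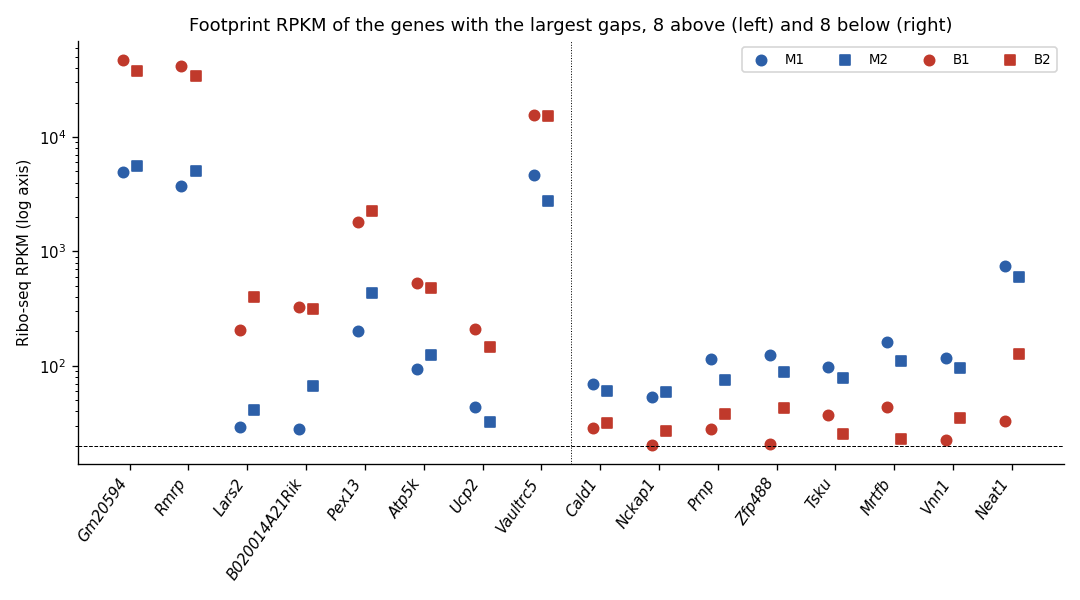
Ribo-seq RPKM (log axis) in M1, M2, B1 and B2 of the 8 genes with the widest gap above and the 8 with the widest gap below. Circles are the first and squares the second library of a group, blue M and red B, and the dashed line marks the minimum of 20 RPKM. Gm20594 runs from 4908 RPKM in M1 to 47166 RPKM in B1, and Neat1 from 748 RPKM in M1 to 33.0 RPKM in B1.

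The widest gaps, measured as the log2 distance between the nearest B and M values, included RNAs with no protein product, 3 of the 8 above (Rmrp, B020014A21Rik and Vaultrc5) and 1 of the 8 below (Neat1). Rmrp, the RNA of the RNase MRP complex that processes ribosomal RNA, had 3721 and 5094 RPKM in M1 and M2 against 41755 and 33906 RPKM in B1 and B2. Vaultrc5, the RNA of the vault particle, had 4662 and 2782 RPKM in M against 15480.1 and 15239 RPKM in B. The RNA subunits of RNase P (Rpph1) and telomerase (Terc) are named here after their values were seen. Rpph1 had 2752 and 2825 RPKM in M against 9036 and 7395 RPKM in B. Terc had 97.4 and 97.7 RPKM in M against 206 and 355 RPKM in B. These 4 RNAs have no reading frame, and all were above in both B libraries. B020014A21Rik, annotated as a long intergenic RNA (chr10:3125091-3133193), had 27.9 and 66.4 RPKM in M against 329 and 316 RPKM in B and an RNA-seq RPKM of 0 in all 4 libraries. The small RNA symbols that the choice of genes dropped were also higher in the B group: they took 4.10% (M1), 5.37% (M2), 8.43% (B1) and 15.4% (B2) of the recovered reads.

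Gm20594 lies at chr6:79817916-79818364 on the plus strand and is annotated as a coding gene with 1 exon. It had 4908 and 5625 RPKM in M1 and M2 against 47166 and 38066 RPKM in B1 and B2, while its mRNA fell from 103 and 128 to 27.8 and 37.1 RPKM (log2 fold change -1.81, SE 0.27, adjusted p = 0.00525). Of its 28-base stretches 11.6% also occurred in mt-Rnr2, the large ribosomal RNA of mitochondria, with a longest identical run of 65 bases. The first 30 bases of that run lie within the annotated coding sequence and are shown because a read inside them matches both places.
Gm20594, chr6:79818283-79818312, and mt-Rnr2, chrM:2102-2131, both plus strand: tttaatcagtgaaattgacctttcagtgaa
Lars2, the mitochondrial leucyl-tRNA synthetase (chr9:123366927-123462666), also had footprints above, with 29.2 and 40.9 RPKM in M against 207 and 401 RPKM in B, and its mRNA fell (log2 fold change -1.81, SE 0.25, adjusted p = 0.00523). Pex13, a receptor dock of the peroxisome, had 204 and 437 RPKM in M against 1809 and 2244 RPKM in B. Its mRNA did not separate the groups, with 10.2 and 9.83 mRNA RPKM in M1 and M2 against 12.5 and 7.84 in B1 and B2. Its M values differed from each other by more than 2-fold, and 7.73% of its stretches occurred in other transcripts. Ucp2, a mitochondrial carrier named an uncoupling protein, had 44.2 and 32.4 RPKM in M1 and M2 against 209.8 and 148 RPKM in B1 and B2. Its mRNA did not pass the test, with 29.9 and 27.1 mRNA RPKM in M1 and M2 against 23.1 and 34.8 in B1 and B2.

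On the other side, Neat1, the long noncoding RNA that builds nuclear paraspeckles (chr19:5824708-5845478), had 748 and 599 RPKM in M1 and M2 against 33.0 and 126 RPKM in B1 and B2, the widest gap below. Its mRNA fell from 51.3 and 64.8 to 20.6 and 18.7 RPKM (log2 fold change -1.51, SE 0.25, adjusted p = 0.00583). Of the 8 genes of the set annotated as lincRNA, Neat1 and Malat1 among them, 3 lay below and 1 (B020014A21Rik) above, and 4 overlapped. Malat1, also nuclear, had 637 and 376 RPKM in M against 291 and 220.0 RPKM in B. Of the 4 genes annotated as processed transcripts, 1 lay above, 1 below and 2 overlapped. Gas5, a host of small nucleolar RNAs, was the one below, with 105 and 91.8 RPKM in M against 91.3 and 77.2 RPKM in B. Dancr was the one above, with 109 and 121 RPKM in M against 143 and 179.5 RPKM in B. Among coding genes, Vnn1, the pantetheinase that makes cysteamine, had 116 and 95.2 RPKM in M1 and M2 against 22.5 and 35.0 RPKM in B1 and B2, with an mRNA log2 fold change of 0.11. Tsku, a secreted hepatokine, had 97.6 and 78.8 RPKM in M against 37.2 and 25.3 RPKM in B, and Zfp488, a zinc finger protein, 125 and 88.0 RPKM in M against 20.8 and 42.6 RPKM in B. The mRNA of Zfp488 fell (log2 fold change -1.69, SE 0.25, adjusted p = 0.00525), and that of Tsku was lower without passing the test (log2 fold change -1.54, SE 0.39, adjusted p = 0.0196). Mrtfb, a coactivator of actin-regulated genes, had 163 and 110.3 RPKM in M against 44.1 and 22.8 RPKM in B on 7 and 2 reads in B1 and B2. Prnp, the prion protein gene, had 115 and 75.1 RPKM in M against 28.1 and 37.8 RPKM in B. Nckap1 of the WAVE complex had 53.8 and 58.9 RPKM in M against 20.3 and 27.2 RPKM in B, and Cald1, which binds actin and myosin, 69.0 and 60.8 RPKM in M against 28.9 and 31.4 RPKM in B. None of the mRNAs of Mrtfb, Prnp, Nckap1 and Cald1 passed the test.

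At the edge of the choice, the members closest to 20 RPKM in their lowest library were Ugt1a6a, Acnat1 and Rab10. Ugt1a6a had 20.3 and 27.5 RPKM in M against 20.0 and 27.7 RPKM in B. Acnat1 had 60.8 and 52.5 RPKM in M against 20.0 and 51.7 RPKM in B. Rab10 had 38.9 and 39.1 RPKM in M against 34.3 and 20.1 RPKM in B. Just outside were Dnaja3, with 20.0 RPKM in B1 on 13 reads, Cacybp, with 20.0 RPKM in B2 on 6 reads, and R3hdm2, with 20.0 RPKM in B2 on 12 reads. All 3 outside had B values below both M values.

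The mRNA levels of the same genes, which the choice had not used, were tested on their own. Of 10687 genes tested with limma on log2(RPKM + 1), 2.30% had a higher and 6.56% a lower mRNA level in B, with calls that needed a change of more than 1 on the log2 scale and p under 0.001 before adjustment. Among the 1752 deeply covered genes tested, 135 (7.71%) were higher and 32 (1.83%) lower, with a median log2 fold change of 0.31 against -0.19 over all genes. The highest adjusted p of any call was 0.0113. The split between higher and lower depends on the scaling: with a common median, 13.5% of the deeply covered genes were higher and 0.685% lower, and 5.05% and 2.72% of all genes.

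Of 241 tested genes with footprints above, 12 were higher and 4 lower in mRNA, with a median log2 fold change of 0.33. Of 511 with footprints below, 27 were higher and 14 lower, with a median of 0.20, and of 1000 with overlapping footprints, 96 were higher and 14 lower, with a median of 0.34. Across the 1752 genes the footprint difference and the mRNA fold change had a Pearson correlation of 0.08 (Spearman 0.10), a description over genes that share libraries.

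**Figure D5:**
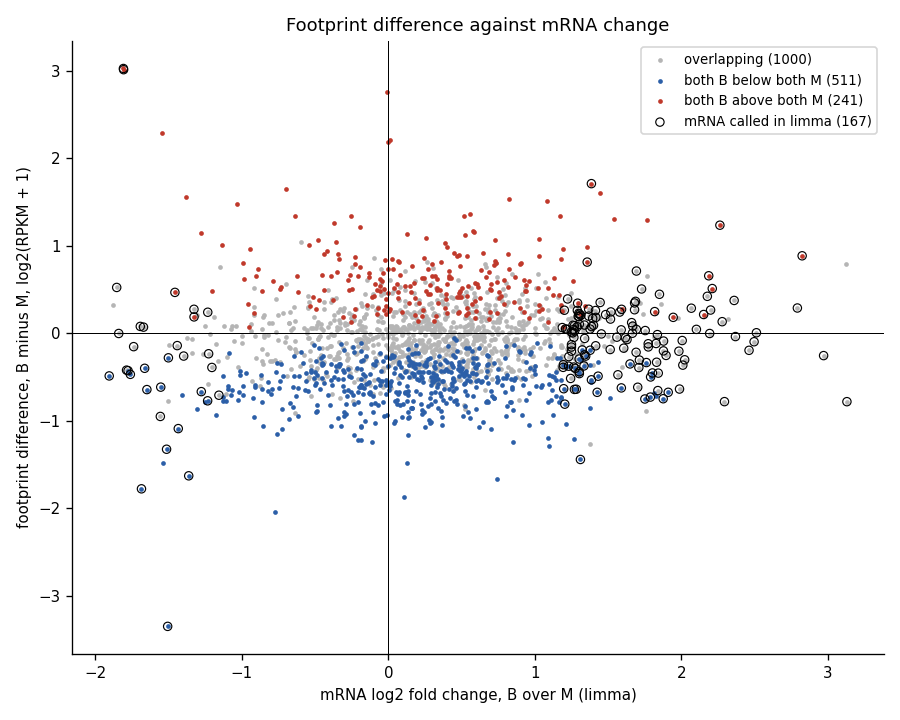
Footprint difference (B minus M, log2(RPKM + 1)) against the mRNA log2 fold change in limma for the 1752 deeply covered genes tested. Points are coloured by whether both B footprint values lie above both M values, below both or overlap, and circles mark the 167 genes with an mRNA call. Circled points lie on both sides of the horizontal line at 0 for higher and for lower mRNA.

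The genes called in mRNA with footprints on the same side were few. With both measures higher, besides Fdps, Sdha, Cox7a2l and Pgm2, were Cstb and Eno1. Cstb, an inhibitor of cathepsins, had 30.0 and 23.6 RPKM in M against 58.2 and 70.2 RPKM in B, and its mRNA rose (log2 fold change 2.26, SE 0.32, adjusted p = 0.00525). Eno1, the glycolytic enolase, had 29.0 and 41.6 RPKM in M against 70.1 and 43.7 RPKM in B, and its mRNA rose (log2 fold change 2.19, SE 0.25, adjusted p = 0.00493). Suox, sulfite oxidase of sulfur amino acid breakdown, Pccb, a subunit of propionyl-CoA carboxylase, Sqor, which oxidises sulfide, Psma1 of the proteasome, Cyp2d11 and the aldehyde reductase Akr1a1 complete the 12. With both measures lower, besides Neat1, Zfp488, Igf1 and Txnip, were Magt1, a subunit of oligosaccharyltransferase (log2 fold change -1.91, SE 0.25, adjusted p = 0.00523), Ivns1abp (log2 fold change -1.43, SE 0.26, adjusted p = 0.00673) and 8 others. Opposite directions were found in 27 genes with lower footprints and higher mRNA and in 4 with higher footprints and lower mRNA. Gpd1, glycerol-3-phosphate dehydrogenase, had 173 and 161 RPKM in M against 104 and 35.3 RPKM in B, while its mRNA rose (log2 fold change 1.31, SE 0.25, adjusted p = 0.0082). Ldha, lactate dehydrogenase, had 319 and 481 RPKM in M1 and M2 against 309 and 248 RPKM in B1 and B2, and its mRNA rose (log2 fold change 1.79, SE 0.27, adjusted p = 0.00525). Pgk1, phosphoglycerate kinase, had 153 and 217 RPKM in M against 147 and 81.1 RPKM in B, and its mRNA rose (log2 fold change 1.79, SE 0.30, adjusted p = 0.00599). These genes were named after their values were seen.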

How the data were processed

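RNA-seq (polyA-selected) and Ribo-seq (cycloheximide, RNase I digestion, Ribo-Zero depletion) of mouse liver were deposited as 1 RPKM value per gene and library. Per the labels and the study's methods, the authors mapped reads to mm10 with FANSe2 (version not given in the sources used here) and computed the RPKM values. The submitters' processing notes also name edgeR. The region over which reads were counted (coding sequence or full transcript) and the library totals are not given in the sources used here.

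Whole reads were recovered from the steps of 1 read among low RPKM values (tolerance 0.005 reads) and give depth, read numbers and gene length. Of the gene lengths, 53.8% lay within 2% of an annotated transcript. Recovered reads covered 97.6% to 98.4% of each Ribo-seq total. A value of 10 reads or fewer is coarse, and read numbers bear on counting error only.

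Genes, functional lists and comparisons were chosen with earlier results of these data known. Footprint differences are mean log2(RPKM + 1) in B minus M. The mRNA was tested with limma 3.58.1 in R 4.3.3 on log2(RPKM + 1), with a mean RPKM of at least 1 and an intensity trend, two-sided, and Benjamini-Hochberg adjusted p-values over all 10687 genes. Calls needed a change of more than 1 on the log2 scale with p under 0.001 before adjustment. A fold change on this scale understates the change of low genes. The fit was tested on simulated data with independent errors and the same spread in both groups. That setting does not cover the differences in depth and spread between these libraries. With 2 libraries per group, p-values measure the spread between these libraries, which may be technical.

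Named genes did not overlap between the groups and were the 8 with the widest gap in each direction and up to 4 with the widest gap in each list, joined by the 3 genes nearest the minimum on each side and the 5 with the highest mean. Others are said to be chosen after their values were seen. Some genes that the rule or the marker lists name are not reported here. Of the genes, 1770 matched an RNA-seq symbol, 20 of them by a synonym, and 1763 had a position in GENCODE M21 (GRCm38). Of the RNA-seq symbols, 26 had turned into dates and 4 entries shared a symbol. Start-site sequences are from RefSeq (GRCm38.p6), with an entry for 1420 genes. Python 3.11.15, numpy 2.4.6, pandas 2.3.3 and matplotlib 3.10.9 were used.

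Alternatives were another pseudocount, other filters and minimum levels, 2 scalings, no intensity trend, a replicate block, adjusted p-values and leaving out each library. Limits on reads, gene type and length and a crossed block were added after seeing the data.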

Additional observations from a re-analysis of the deposited data

Results flagged for a closer look

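The small RNA symbols that were left out of the deeply covered genes took a mean of 11.9% ± 4.96 (SD, n = 2) of the recovered Ribo-seq reads in the B group and 4.73% ± 0.901 (SD, n = 2) in the M group. It drew attention because these entries belong to none of the comparisons and both B libraries were above both M libraries. The difference was not tested.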

How the results depend on the processing

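The footprint counts moved with the scaling, and the cause was not tested. With a common sum, 78 genes lay above and 1002 below both M values, 18 higher and 225 lower by over 1 on the log2 scale. With a common median, 368 lay above and 365 below, 59 higher and 21 lower by over 1. Other minimum levels changed the number of genes. At 1 RPKM, 788 (11.3%) of 6960 genes lay above and 2226 (32.0%) below (248 and 658 beyond 1). At 10 RPKM, 358 (12.5%) of 2859 lay above and 913 (31.9%) below (66 and 111 beyond 1). At 50 RPKM, 132 (16.3%) of 809 lay above and 202 (25.0%) below (18 and 5 beyond 1). With at least 10 reads in every library, an alternative chosen after seeing the data, 26 were lower by over 1. Leaving out each library gave 388 to 618 above, 718 to 909 below, 39 to 98 higher and 50 to 119 lower by over 1. With 1 library left in a group the values overlap less often by construction, and 618 above came without B2 and 909 below without B1.

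For mRNA in the deeply covered genes, the higher and lower calls were 237 and 12 with a common median, 249 and 67 with the replicate block and 269 and 75 at an adjusted p under 0.05. They were 54 and 18 with no filter on the mean RPKM, and 52 were lower with a common sum. Leaving out each library gave 80 to 274 higher and 24 to 77 lower. The 80 came without M1, and the 274 and 77 without B2, where the lone library of a group is assumed to vary like the other group. Among genes with footprints above, higher calls were 27 with a common median, 30 with the replicate block, 35 at an adjusted p under 0.05 and 3 with no filter (9 to 28 leaving out a library), and lower calls 2, 9 and 10 in the first 3 of these and 7 with a common sum (2 to 17). Among genes with footprints below, higher calls were 56, 57, 62 and 8 in the same order (9 to 66), and lower calls 7, 26 and 30 (13 to 21).

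Whether the replicate numbers pair the M and B libraries is not known. Deviations of same-numbered M and B libraries had a correlation of -0.09 in Ribo-seq and -0.10 in RNA-seq. With 2 libraries per group these values cannot settle it. With the pairing crossed, chosen after seeing the data, the block gave 218 higher and 56 lower calls, 25 and 7 among genes with footprints above and 50 and 22 among those below.

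Over all genes, footprint calls were 349 higher and 421 lower with a common median, 41 and 2664 with a common sum, and 311 lower at a mean RPKM of at least 5 (57 to 524 higher and 722 to 2609 lower leaving out a library). With a common sum the footprint difference turned negative for Pgm2 (-0.16), Ugt2b36 (-0.0592), Vtn (-0.0313), Ttr (-0.0345), Serpina1a (-0.0724) and Apoh (-0.0485). Of the 167 deeply covered genes with an mRNA call, 45 kept it under every alternative run. Over all 167 genes, 1518 of 1837 refits kept the call, 319 lost it and 0 changed direction.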
